A study of Homo sapiens with 12 samples.

Results

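The comparison described here set a pair of locked nucleic acids (LNAs) directed at the mitochondrial asparagine tRNA, mtAsn-1 and mtAsn-2, against an LNA directed at the mitochondrial lysine tRNA, mtLys. An LNA is a short, chemically stabilised oligonucleotide that pairs with a complementary RNA. All cells were MDA-MB-231, a long-established line from human breast cancer of the triple-negative type, with mesenchymal features, and RNA was sequenced from 3 mtAsn-1 LNA libraries, 3 mtAsn-2 LNA libraries and 3 mtLys LNA libraries. These are 9 of the 12 libraries of the series, and the other 3, from a control LNA, are given beside them as values. Every group received 20 nM of its LNA with Lipofectamine 2000 and was collected on day 2, so transfection of an LNA is shared by all of them. The question the comparison puts is which RNAs part cells given an LNA against the asparagine tRNA from cells given an LNA against another mitochondrial tRNA. Each mtAsn LNA had equal weight, and the genes described are those for which all 6 mtAsn libraries lay on 1 side of all 3 mtLys libraries. Over 52859 intact gene rows, 832 genes (1.57%) lay higher in every mtAsn library and 1177 (2.23%) lower. Of the 16051 genes with enough reads to test, these were 771 (4.8%) and 995 (6.2%).

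Mitochondria hold a small genome of their own, and its tRNA genes serve the translation of the respiratory chain proteins that the same genome encodes. Each of these tRNAs is charged with its amino acid by an enzyme encoded in the nucleus: NARS2 charges the asparagine tRNA, and KARS1 charges lysine tRNAs in both the cytosol and the mitochondrion. The genes of the targeted tRNAs are shown because each LNA was named for 1 of them, and the capitals mark the anticodon, the bases that read the codon. The sequences of the LNAs themselves were not used here. MT-TN, the asparagine tRNA gene, lies on the minus strand of the mitochondrial genome (GRCh38, positions 5657 to 5729), and MT-TK, the lysine tRNA gene, on the plus strand (positions 8295 to 8364). Both are printed from the GENCODE transcripts as DNA, 73 and 70 bases long:
MT-TN: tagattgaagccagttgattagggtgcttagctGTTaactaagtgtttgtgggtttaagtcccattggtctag
MT-TK: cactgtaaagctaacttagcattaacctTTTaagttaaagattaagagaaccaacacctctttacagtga

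MT-TN was barely covered in these libraries. It had 5, 2 and 2 reads in the mtAsn-1 libraries and 1, 1 and 3 reads in the mtAsn-2 libraries, against 4, 5 and 1 reads in the mtLys libraries and 3, 6 and 2 reads in the control libraries. The rate ratio of mtAsn over mtLys was 0.823 from 14 and 10 reads, with a 95% counting interval of 0.34 to 2.07. A two-sided exact permutation test of 6 against 3 libraries, which cannot go below 0.0238, gave p = 0.857. With so few reads no change in MT-TN could be detected, so it cannot serve to check the labels. MT-TK stood at 6.21, 7.72 and 9.67 CPM (reads scaled to a common library size) with mtAsn-1 and 8.62, 10.2 and 6.61 CPM with mtAsn-2, against 7.55, 8.29 and 7.37 CPM with mtLys and 6.80, 5.88 and 5.93 CPM with control. Its mtAsn and mtLys libraries overlapped, with a rate ratio of 1.07 (95% counting interval 0.979 to 1.17) and an exact permutation p = 0.714. With library totals alone as the scaling, the rate ratio was 1.11 (1.01 to 1.21), with an exact permutation p = 0.619. All mtLys libraries lay above those of control, but this difference did not pass (log2 fold change 0.32, edgeR adjusted p = 0.0979). The mean of the mtAsn LNAs lay above control by 0.40 (edgeR adjusted p = 0.021), with overlapping libraries. The library kit is made for polyadenylated RNA rather than for tRNA, mitochondrial genes have near-identical copies in the nuclear genome that may take part of their reads, and the intervals cover counting error only.

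The synthetase genes did not pass the test. NARS2 stood at 14.6 to 17.1 CPM with mtAsn-1 and 13.8 to 15 CPM with mtAsn-2, against 14.3 to 14.7 CPM with mtLys. Its log2 fold change of mtAsn over mtLys was 0.05 ± 0.064 (SE, edgeR adjusted p = 0.611). KARS1 lay at 141 to 149 CPM in the mtAsn libraries, against 144 to 149 CPM in the mtLys libraries (adjusted p = 0.965).

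Total counts were 17978825 to 28314164 for mtAsn-1, 30524246 to 34832707 for mtAsn-2, 27316004 to 37708993 for mtLys and 18826253 to 31112975 for control. The cells had the markers of their line: vimentin (VIM), the hyaluronan receptor CD44 and the receptor kinase AXL were read in every library, and the summed level of 12 such markers was 8405 to 8894 CPM with mtAsn-1 and 7133 to 7326 CPM with mtAsn-2, against 8571 to 8718 CPM with mtLys. The luminal hormone receptor genes ESR1 and PGR had at most 6 reads and 1 read in any of the 9 libraries. The luminal list was not silent, however. KRT19 averaged 368 CPM with mtAsn-1 and 262 CPM with mtAsn-2, against 355 CPM with mtLys. ERBB2 averaged 104 and 119 CPM with mtAsn-1 and mtAsn-2, against 97.2 CPM with mtLys. Among markers of other cell types, the B cell gene MS4A1, the erythroid gene HBB, the endothelial gene CDH5 and the fibroblast gene DCN were at 0 in all 9 libraries. Other members of those lists were read: CD68, a macrophage marker, averaged 103 CPM with mtAsn-1 and 93.9 CPM with mtAsn-2, against 99.5 CPM with mtLys. The collagen gene COL1A1 averaged 34.4 and 53.5 CPM with mtAsn-1 and mtAsn-2, against 37.2 CPM with mtLys, and the endothelial marker PECAM1 16.1 and 10.8 CPM, against 17.2 CPM. In bulk RNA, fewer cells of a type and less RNA per cell cannot be told apart. Whether the replicates were grown as separate cultures is not stated in the labels, and the p-values reflect only the variation among these libraries, which may be technical.

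On the first principal component of the 9 libraries, with 49.8% of the variance, mtAsn-2 stood alone at 32.28 to 36.65, while mtAsn-1 lay at -21.68 to -15.83 beside mtLys at -17.31 to -16.3. The second component, with 14%, put mtAsn-1 at 8.39, 28.19 and 4.73, and mtLys at -10.31, -17.11 and -16.78, with mtAsn-2 near 0. Replicate 2 of mtAsn-1, the shallowest of these libraries, lay farthest out on it. By edgeR, 7465 genes (46.5%) differed between mtAsn-1 and mtAsn-2 at an adjusted p under 0.05.

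**Figure D1:**
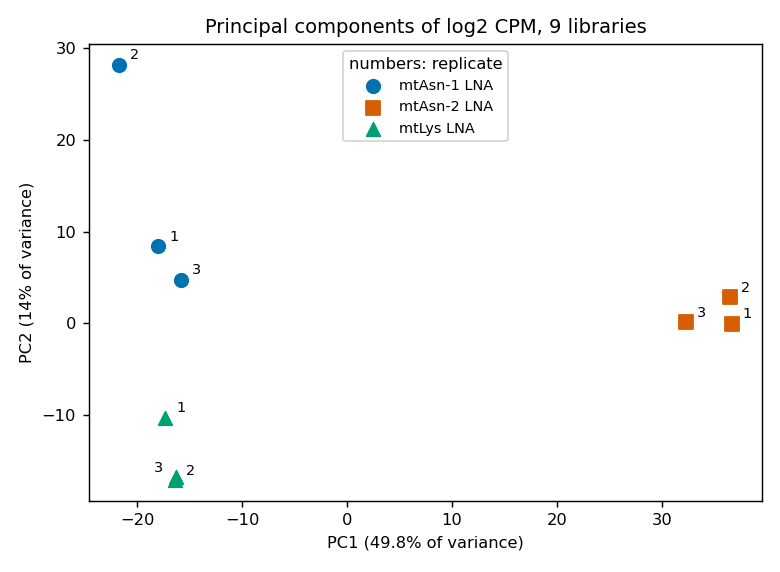
First principal component (x axis, 49.8% of variance) against the second (y axis, 14%) of log2 CPM in the 9 libraries, with 1 point per library numbered by replicate. The 3 mtAsn-2 libraries stand at the right, and on the y axis the mtAsn-1 libraries lie above the mtLys libraries.

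For the mean of both asparagine LNAs against mtLys, edgeR called 1893 genes higher (11.8% of those tested) and 2811 lower (17.5%) at an adjusted p under 0.05. Of these, 620 higher genes (3.86%) and 893 lower genes (5.56%) also had no overlap between libraries. Only 49 called genes were at least 2-fold higher and 103 at least 2-fold lower. Another 253 of the 1766 tested genes without overlap did not pass. With library totals alone as the scaling, the split turned to 2858 higher and 2240 lower, and the median of all genes moved by 0.038 on the log2 scale. Among tested genes with a mean log2 CPM of at least 2, the nearest hit and the nearest miss of the no-overlap rule lay within rounding of it. For RPL13P12, the hit, the lowest mtAsn library stood at 9.7551 CPM and the highest mtLys library at 9.755 CPM. For TAF3, the miss, these were 24.35 and 24.351 CPM.

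The asparagine LNAs contributed unequally to their mean. Against mtLys, mtAsn-1 alone gave 341 higher (2.12%) and 504 lower genes (3.14%), and mtAsn-2 alone gave 3682 higher (22.9%) and 4125 lower genes (25.7%). Both comparisons share the mtLys libraries. The median absolute log2 fold change over all genes tested was 0.092 with mtAsn-1 and 0.212 with mtAsn-2. Among the called genes, 1004 had the LNAs on opposite sides of mtLys. Of the 620 higher genes without overlap, 169 passed with mtAsn-1 alone and 583 with mtAsn-2 alone, and of the 893 lower ones 330 and 856. Of the 620, 273 differed between mtAsn-1 and mtAsn-2 by the test of that difference, and mtAsn-2 lay farther from mtLys in 263 of them. Of the 893 lower ones 478 differed, with mtAsn-2 farther out in 461. Over all genes tested, 46.5% differed between the LNAs. A fit that treats the 6 mtAsn libraries as 1 group, and so counts the difference between the LNAs as error, called 74 higher and 170 lower genes, with 3222 at an unadjusted p under 0.05. All 244 were called above, and none of their libraries overlapped.

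The clearest genes were ranked by the smaller of the 2 LNAs' changes, 12 in each direction. NUPR1, CXCL8 and CXCL2 stood first on the higher side, and CEMIP, AGR2 and AQP3 on the lower side. Several of these genes stood at other levels in the control libraries than in either arm, so the direction against mtLys is not a direction against control.

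NUPR1, a stress-induced regulator of transcription (chr16:28532708-28538974, minus strand, hg38), had 4.88, 7.55 and 4.53 CPM with mtAsn-1 and 9.33, 9.68 and 9.68 CPM with mtAsn-2, against 2.83, 3.57 and 3.28 CPM with mtLys. The mtAsn libraries all lay above the mtLys libraries, and the control libraries, at 15.9, 16.0 and 15.3 CPM, lay above both. The log2 fold change of mtAsn over mtLys was 1.17 ± 0.12 (SE, edgeR adjusted p = 1.87e-08), with 0.77 in mtAsn-1 cells and 1.57 in mtAsn-2 cells. NUPR1 stood first in this ranking on the higher side, and it was lower than in control (-1.12 for the mean of the mtAsn LNAs, adjusted p = 1.14e-10).

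The 3 chemokine genes CXCL8, CXCL2 and CXCL1 encode secreted proteins that draw neutrophils through the receptor CXCR2, and all lie on chromosome 4. CXCL8 (73740569 to 73743716, plus strand) had 22.2, 30.7 and 25.5 CPM with mtAsn-1 and 40.3, 43.7 and 37.3 CPM with mtAsn-2, against 12.7, 17.7 and 15.8 CPM with mtLys. Its control libraries were the lowest, at 10.6, 8.97 and 8.13 CPM. The log2 fold change was 1.08 ± 0.12 (adjusted p = 2.66e-05), made up of 0.76 in mtAsn-1 and 1.40 in mtAsn-2 cells.

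CXCL2 (74097040 to 74099195, minus strand) had 4.14, 6.92 and 4.71 CPM with mtAsn-1 and 11.8, 12.8 and 11.2 CPM with mtAsn-2, against 2.99, 3.60 and 2.94 CPM with mtLys. The control libraries, at 3.03, 2.92 and 2.14 CPM, overlapped those of mtLys. The change was 1.3 ± 0.13 (adjusted p = 1.20e-08), or 0.69 in mtAsn-1 and 1.90 in mtAsn-2 cells. CXCL1 (73869393 to 73871308, plus strand) had 15, 19.4 and 16.2 CPM with mtAsn-1 and 29, 27.4 and 26.6 CPM with mtAsn-2, against 9.57, 11.8 and 10.4 CPM with mtLys and 7.66, 5.17 and 3.96 CPM with control. Its change was 1.02 ± 0.12 (adjusted p = 2.12e-05). CXCL1 and CXCL2 are close copies, between which reads can be split, so their separate values are uncertain.

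The promoters of these 3 genes are shown because the genes move together here and each holds the letters GGAATTTCC, a motif bound by NF-kB dimers. Each line gives the 100 bases before the start site of transcription from RefSeq (GRCh38.p14, the gene's own strand), with the motif in capitals. It begins 78, 77 and 91 bases before the start in CXCL1, CXCL2 and CXCL8:
CXCL1 (chr4:73869293-73869392, plus strand): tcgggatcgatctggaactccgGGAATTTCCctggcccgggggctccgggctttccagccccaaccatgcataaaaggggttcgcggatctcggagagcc
CXCL2 (chr4:74099196-74099295, minus strand): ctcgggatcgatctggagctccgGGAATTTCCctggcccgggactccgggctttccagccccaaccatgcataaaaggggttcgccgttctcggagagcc
CXCL8 (chr4:73740469-73740568, plus strand): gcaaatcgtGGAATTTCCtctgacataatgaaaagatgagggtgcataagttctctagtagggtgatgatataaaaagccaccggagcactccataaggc

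On either strand, GGAATTTCC occurred in 162 of 35116 RefSeq promoters of 250 bases before to 50 after the start (0.461%). It occurred in 5 of the 15 promoters found for the list of chemokines, growth factors and interleukins (CXCL8, CXCL1, CXCL3, CXCL2 and CXCL10). The wider pattern GGNNTTTCC, which contains it, occurred in 6.26% of all promoters. Among the lists described below, GGAATTTCC occurred in 5 of 17 promoters of NF-kB targets and in 0 of 26 of the ATF4 list. A C/EBP-ATF motif, TGATGCAA, occurred in 1 of those 26 (CHAC1) and in 0.866% of all promoters. The lists were chosen with earlier results of these data known, and the chemokine list holds close copies such as CXCL1 and CXCL2. Their counts are thus no measure of enrichment, which was not tested. A match describes the sequence and is not evidence of binding in these cells.

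PTGS2, the inducible cyclooxygenase that starts prostaglandin synthesis (chr1:186671791-186680423), had 4.98, 6.57 and 4.96 CPM with mtAsn-1 and 6.69, 7.72 and 6.03 CPM with mtAsn-2. Its mtLys libraries stood at 3.94, 2.75 and 3.69 CPM and its control libraries at 1.87, 1.92 and 1.71 CPM, so the order mtAsn, mtLys, control had no overlap. The change was 0.81 ± 0.12 (adjusted p = 5.62e-06). DHRS3, a retinaldehyde reductase of vitamin A metabolism, had 11.3 to 13.8 CPM with mtAsn-1 and 14.2 to 15.3 CPM with mtAsn-2, against 7.03 to 8.27 CPM with mtLys. DHRS3 rose by 0.78 ± 0.078 (adjusted p = 7.63e-09), and at 12.8 to 14.2 CPM the control libraries overlapped those of the mtAsn LNAs.

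The remaining higher genes changed by 0.52 to 0.74. GUCY1B1, a subunit of the nitric oxide receptor soluble guanylate cyclase, rose by 0.74 ± 0.10 (adjusted p = 3.13e-06), and RFX2, a transcription factor of ciliary genes, by 0.72 ± 0.075 (3.23e-08). CEBPD, a transcription factor of acute inflammation, rose by 0.59 ± 0.094 (2.01e-05). RADX, which binds single-stranded DNA at replication forks, rose by 0.52 ± 0.082 (1.91e-05), and the adhesion G protein-coupled receptor gene ADGRB2 by 0.52 ± 0.092 (1.32e-04). The kinase gene PIM1 had 42.6, 65.4 and 41.8 CPM with mtAsn-1 and 47.2 to 50.7 CPM with mtAsn-2, against 32.6 to 37.5 CPM with mtLys. PIM1 passed for the mean (0.52 ± 0.14, adjusted p = 0.0198), lost the call without mtLys replicate 2 (0.078) or 3 (0.0732), and did not pass with mtAsn-1 alone (0.117).

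Replicate 2 of mtAsn-1, which stood apart on the second component, held the highest mtAsn-1 value of all 12 ranked higher genes other than GUCY1B1 and ADGRB2. Without it the changes were 1.06 for NUPR1, 1.02 for CXCL8, 1.19 for CXCL2, 0.97 for CXCL1, 0.75 for PTGS2, 0.40 for PIM1, 0.65 for RFX2, 0.74 for DHRS3, 0.55 for CEBPD and 0.50 for RADX, and each still passed. In the fit of 1 mtAsn group, 4 of the 12 higher genes lost the call: CXCL2 (adjusted p = 0.0687), CXCL1 (0.0516), PIM1 (0.0517) and RFX2 (0.0527).

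**Figure D2:**
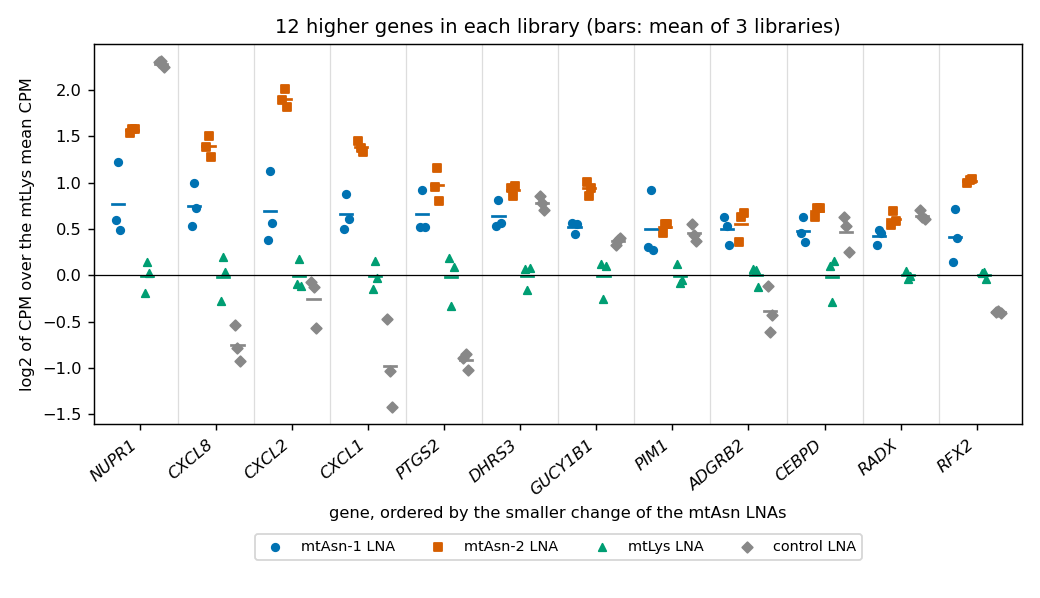
Log2 of each library's CPM over the mean mtLys CPM (y axis) for the 12 ranked higher genes (x axis), with 3 libraries per group and bars at group means. Every mtAsn-1 and mtAsn-2 point lies above every mtLys point, while control points lie above, among or below them depending on the gene; NUPR1 controls, at 15.3 to 16.0 CPM, are above all.

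CEMIP, which takes part in breaking down hyaluronan outside the cell (chr15:80779370-80951771, plus strand), stood first on the lower side of this ranking, which took in protein-coding genes with a mean log2 CPM of at least 2. It had 18.5, 16.6 and 20.0 CPM with mtAsn-1 and 20.6, 18.4 and 20.3 CPM with mtAsn-2, against 40.7, 54.3 and 48.0 CPM with mtLys. The asparagine LNAs overlapped each other, and the control libraries, at 28.3, 29 and 29.6 CPM, lay between the arms. The log2 fold change was -1.32 ± 0.071 (edgeR adjusted p = 2.94e-11), with -1.36 in mtAsn-1 and -1.27 in mtAsn-2 cells, which did not differ by the test (adjusted p = 0.461).

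AGR2, a disulfide isomerase of the endoplasmic reticulum found in secretory epithelia (chr7:16791811-16804999, minus strand), had 12.3, 11.5 and 12.4 CPM with mtAsn-1 and 13.1, 13.8 and 14.1 CPM with mtAsn-2. The mtLys libraries stood at 24.2, 22.6 and 24.6 CPM, above the 15.1, 14.3 and 15.7 CPM of control. AGR2 fell by 0.89 on the log2 scale (SE 0.057, adjusted p = 1.41e-12).

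AQP3, a channel for water and glycerol (chr9:33441154-33447596, minus strand), had 12.1, 9.09 and 11.5 CPM with mtAsn-1 and 6.69, 5.65 and 7.67 CPM with mtAsn-2, against 16.5, 21.6 and 19.1 CPM with mtLys. Control was highest, at 26.9, 25.8 and 23.9 CPM. The change was -1.15 ± 0.093 (adjusted p = 8.01e-09), larger with mtAsn-2 (-1.51) than with mtAsn-1 (-0.79; adjusted p of the difference 9.76e-05). ANGPTL2, a secreted angiopoietin-like glycoprotein, had 29.4, 36.5 and 31.7 CPM with mtAsn-1 and 24.5, 25.4 and 28.2 CPM with mtAsn-2, against 58.2, 52.0 and 55.3 CPM with mtLys. Here control (24.9, 23.2 and 24.4 CPM) lay beside the asparagine LNAs and mtLys stood apart from all, with a change of -0.93 ± 0.055 (adjusted p = 7.08e-13).

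INHBB, the subunit from which activin B is built, had 23.9, 17.9 and 19.1 CPM with mtAsn-1 and 9.14, 8.47 and 11.7 CPM with mtAsn-2, against 31.0, 32.5 and 29.8 CPM with mtLys. It fell by 1.15 (SE 0.095, adjusted p = 3.09e-07), and control was at 33.1 to 40.2 CPM. F13A1, the catalytic subunit of coagulation factor XIII, changed by -1.08 ± 0.12 (2.24e-07), and SLAMF7, a receptor best known on immune cells, by -0.85 ± 0.14 (3.86e-04). MARCHF4, a membrane-bound ubiquitin ligase gene, changed by -0.78 ± 0.097 (4.95e-07), and RAB37, a small GTPase of secretory vesicles, by -0.70 ± 0.12 (0.00109). PLLP, a membrane proteolipid gene, changed by -0.64 ± 0.075 (1.61e-07), with -0.64 for either LNA. GGT1, which cleaves the gamma-glutamyl bond of glutathione, changed by -0.64 ± 0.11 (6.02e-04), and MYO15B by -0.62 ± 0.095 (1.16e-05). GGT1 has near-identical copies that can share reads. In the fit of 1 mtAsn group, F13A1 (adjusted p = 0.0524) and INHBB (0.0733) lost the call and the other 10 lower genes kept theirs.

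**Figure D3:**
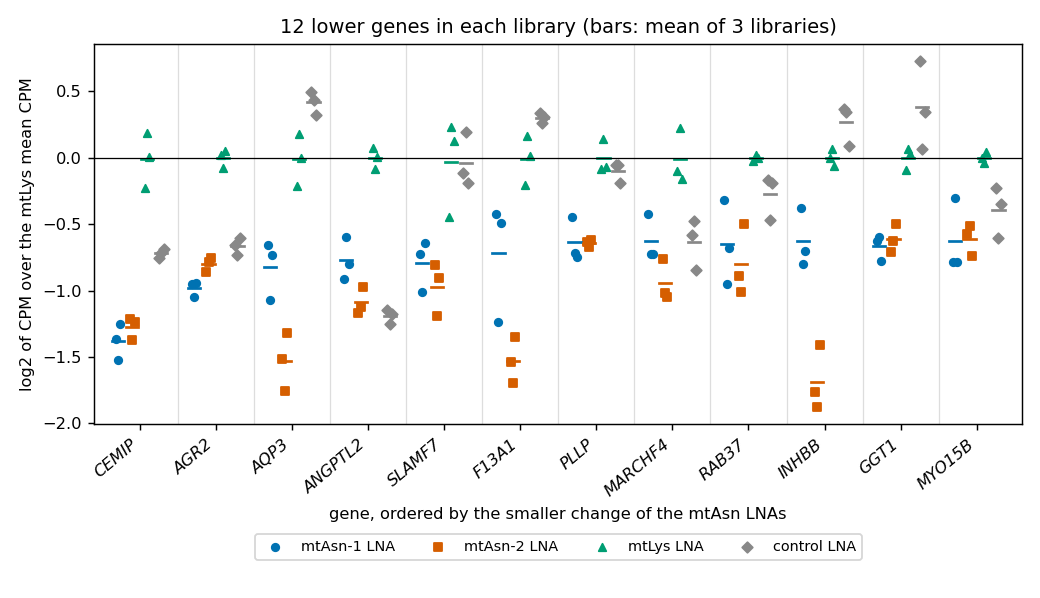
Log2 of each library's CPM over the mean mtLys CPM (y axis) for the 12 ranked lower genes (x axis), with 3 libraries per group and bars at group means. Every mtAsn-1 and mtAsn-2 point lies below every mtLys point, and for CEMIP, at 16.6 to 20.6 CPM in all mtAsn libraries, the points of both asparagine LNAs overlap.

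Against the control libraries these genes took every position. Of the 620 higher genes without overlap, the control mean lay beyond the mtAsn mean in 211, between the arms in 235 and beyond the mtLys mean in 174. Of the 893 lower ones these numbers were 277, 368 and 248. Which arm lay nearer to control thus changed from gene to gene.

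Some values are uncertain for reasons of counting. Strand was not stated, so reads from a stretch shared with a gene on the opposite strand cannot be told apart. Shared exons were not looked for. The whole gene span, introns included, overlaps such a gene for 226 of the 620 higher and 434 of the 893 lower genes. Among the 24 ranked genes these are RFX2, CEMIP, ANGPTL2, F13A1, MARCHF4, RAB37, GGT1 and MYO15B. Among the genes named below they are MTHFD2, SHMT2, ASNS, DDIT3, CHAC1, SLC7A11, YARS1, MARS1, YARS2, TNFAIP3, NR4A1, COL5A1, ITGB2, ITGA7, ADAM10, TIMP3, TEAD1, TGFB2, CENPF, RPL27A, GLUD1, MVK, FADS2, SLC25A13, MRPS6, ATP5ME, GRPEL2, TRAP1, BCL2L12, MDM2, ERBB2 and KRT8. NARS2 and VIM overlap such a gene as well.

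Gene lists are described next by counts and medians, beside a median of 0 over all genes tested for the mean and 0.005 for mtAsn-2, and beside the 11.8% and 17.5% of all tested genes called higher and lower. For counts of a single LNA against mtLys, these shares were 2.12% and 3.14% with mtAsn-1 and 22.9% and 25.7% with mtAsn-2. Cytosolic ribosomal protein genes, which encode the protein part of the ribosomes that translate nuclear messages, were higher almost throughout. Of 72 tested, 64 rose, 1 fell and 7 did not pass, and 53 of the risen genes had no overlap. The median change was small, 0.16 for the mean, 0.13 in mtAsn-1 and 0.19 in mtAsn-2 cells, and single genes ranged from -0.15 to 0.33. Their summed level was 45474 to 47847 CPM with mtAsn-1 and 47909 to 48644 CPM with mtAsn-2, against 41215 to 43241 CPM with mtLys and 43586 to 46031 CPM with control.

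RPL12, of the large subunit, had 780, 844 and 768 CPM with mtAsn-1 and 969, 967 and 958 CPM with mtAsn-2, against 712, 665 and 716 CPM with mtLys; control was at 925, 980 and 977 CPM. It had the largest change of the list, 0.33 ± 0.036 (adjusted p = 3.41e-08). RPL13A had 1812 to 1948 CPM with mtAsn-1 and 1975 to 2018 CPM with mtAsn-2, against 1596 to 1659 CPM with mtLys, a change of 0.25 ± 0.032 (6.29e-07). RPL27A was the gene that fell (-0.15, 5.19e-04). Many close copies of these genes exist that may take part of their reads. In the fit of 1 mtAsn group 9 of them were called.

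Genes of mitosis and G2, which build the spindle and drive entry into division, moved the same way. Of 33 tested, 15 rose and 0 fell, with 10 of the 15 free of overlap and a median of 0.10 (0.12 with mtAsn-1 and 0.10 with mtAsn-2). CENPF, a kinetochore protein gene, had 300, 304 and 301 CPM with mtAsn-1 and 302, 340 and 298 CPM with mtAsn-2, against 259, 233 and 240 CPM with mtLys and 251 to 270 CPM with control (0.33 ± 0.041, adjusted p = 4.16e-07). CCNB1, the cyclin of mitotic entry, rose by 0.23 ± 0.038 (1.92e-05), with 300 to 325 CPM in the mtAsn libraries against 264 to 274 CPM in the mtLys libraries. Without mtLys replicate 2 the count of risen genes was 8, and in the fit of 1 mtAsn group 2. Genes of DNA replication and S phase went the other way where they passed, with 1 higher and 11 lower of 36 and none of the calls free of overlap.

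The ATF4 list holds genes that cells switch on when amino acids run short or mitochondrial function is impaired. Of 32 tested, 23 rose, 3 fell and 6 did not pass, with 15 of the rises free of overlap. The median was 0.28, with 0.17 in mtAsn-1 and 0.38 in mtAsn-2 cells. The list as a whole stood lower than in the control libraries in all arms: its summed level was 4388 to 4424 CPM with mtAsn-1 and 4834 to 4905 CPM with mtAsn-2, against 3998 to 4082 CPM with mtLys and 5729 to 6098 CPM with control. The transcription factor gene ATF4 itself had 455, 468 and 453 CPM with mtAsn-1 and 522, 515 and 535 CPM with mtAsn-2. Its mtLys libraries stood at 411, 410 and 417 CPM, a change of 0.25 ± 0.031 (adjusted p = 4.88e-07), and control at 550 to 573 CPM.

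PHGDH, the first enzyme of serine synthesis, had 13.7, 15.1 and 13.9 CPM with mtAsn-1 and 23.4, 23.6 and 27 CPM with mtAsn-2, against 11.6, 10.9 and 10.8 CPM with mtLys. All mtAsn libraries lay between those of mtLys and those of control, which reached 36.3 CPM. The change was 0.75 ± 0.071 (3.34e-09). The next enzyme of the pathway, PSAT1, rose by 0.53 ± 0.051 (4.22e-08), and PSPH, the last, by 0.12 ± 0.042 (0.0281). In the folate cycle of mitochondria, MTHFD2 rose by 0.51 ± 0.046 (1.30e-09) and SHMT2 by 0.28 ± 0.034 (2.26e-07). SHMT2 stood at 376 to 403 CPM in the mtAsn libraries, against 310 to 332 CPM with mtLys and 318 to 335 CPM with control. The whole list of serine, glycine and folate genes gave 8 higher and 3 lower of 26 (5 higher without mtLys replicate 3), with a median of 0.04.

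ASNS, the enzyme that makes asparagine, had 1.68, 2.34 and 1.51 CPM with mtAsn-1 and 1.71, 2.16 and 1.83 CPM with mtAsn-2, against 1.11, 1.05 and 1.12 CPM with mtLys and 2.83 to 3.14 CPM with control. It rose by 0.75 ± 0.16 (adjusted p = 8.36e-04), at 0.72 and 0.79 for the LNAs. DDIT3, a pro-apoptotic transcription factor gene of this response, rose by 0.52 ± 0.051 (5.61e-09), CHAC1, which degrades glutathione, by 0.70 ± 0.072 (1.68e-08), and the secreted stress factor gene GDF15 by 0.49 ± 0.12 (0.00431). SLC7A11, the cystine transporter gene, had the LNAs on opposite sides of mtLys, at 0.37 in mtAsn-1 and -0.71 in mtAsn-2 cells, and fell on the mean (-0.17, 0.00202). With the mtAsn libraries as 1 group, 6 members were called: ATF4, DDIT3, NUPR1, ASNS, PSAT1 and SHMT2.

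Cytosolic aminoacyl-tRNA synthetase genes, several of which belong to the same response, gave 9 higher and 1 lower of 23 with a median of 0.04. YARS1 (tyrosine) had 236, 271 and 245 CPM with mtAsn-1 and 310 to 317 CPM with mtAsn-2, against 218 to 225 CPM with mtLys, a change of 0.33 ± 0.04 (2.00e-07). GARS1 (glycine), MARS1 (methionine), SARS1 (serine) and AARS1 (alanine) rose by 0.28, 0.25, 0.24 and 0.19, while NARS1, the cytosolic asparagine enzyme, stood at 0.08 and did not pass (0.133). Mitochondrial synthetase genes gave 3 higher and 3 lower of 19, with YARS2 higher by 0.26 ± 0.047 (1.16e-04).

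NF-kB is a family of transcription factors held inactive by IkB proteins, and its targets include its own inhibitors and inflammatory mediators. Of 19 tested target genes, 15 rose, 0 fell and 4 did not pass, with 8 free of overlap and a median of 0.41. This median was 0.14 with mtAsn-1 and 0.56 with mtAsn-2. The summed level of the list was 1648 to 1827 CPM with mtAsn-1 and 2220 to 2292 CPM with mtAsn-2, against 1575 to 1653 CPM with mtLys and 1599 to 1733 CPM with control. NFKBIA, which encodes an inhibitor that ends the response, had 164, 174 and 161 CPM with mtAsn-1 and 223, 221 and 242 CPM with mtAsn-2, against 136, 157 and 146 CPM with mtLys. It rose by 0.41 ± 0.049 (adjusted p = 1.04e-06). TNFAIP3, a further inhibitor, rose by 0.45 (1.50e-05), and CD83, a surface protein gene, by 0.73 ± 0.077 (2.11e-08).

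For some members the LNAs lay on opposite sides of mtLys. The subunit genes NFKB2 (-0.14 in mtAsn-1 and 0.94 in mtAsn-2 cells) and RELB (-0.11 with mtAsn-1 and 1.09 with mtAsn-2) had overlapping libraries. So did BIRC3, an inhibitor of apoptosis (-0.11 in mtAsn-1 and 1.14 in mtAsn-2 cells), and the signalling adaptor gene TRAF1 (-0.06 with mtAsn-1 and 0.96 with mtAsn-2). On the mean NFKB2, RELB, BIRC3 and TRAF1 passed at 0.40, 0.49, 0.52 and 0.45. By the test of the difference between the LNAs, 15 of the 19 genes of the list were lower with mtAsn-1 than with mtAsn-2 and 1 was higher. With the mtAsn libraries as 1 group, TNFAIP3, TNIP1, BCL3 and PTGS2 were called.

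Chemokines, growth factors and interleukins gave 11 higher and 2 lower of 19, with 6 and 1 free of overlap and a median of 0.53 (0.18 with mtAsn-1 and 0.84 with mtAsn-2). Beside the ranked chemokines, IL1A, an interleukin released by damaged cells, had 1.13, 1.89 and 1.98 CPM with mtAsn-1 and 2.23, 2.78 and 2.65 CPM with mtAsn-2, against 0.836, 0.937 and 0.819 CPM with mtLys and 0.588 to 0.650 CPM with control. It rose by 1.25 ± 0.18 (3.66e-06). CXCL3 rose by 1.04 ± 0.17 (2.68e-05) and IL1B by 0.53 ± 0.15 (0.00755). The growth factor genes CSF3 (1.20, 7.80e-07) and CSF2 (0.75, 0.016) passed with overlapping libraries. CSF2 had 41.5, 79.4 and 47.1 CPM with mtAsn-1 and 116 to 127 CPM with mtAsn-2, against 44.6 to 51.7 CPM with mtLys. IL18 fell (-0.24 ± 0.057, 0.00196), with 18.9 to 23.1 CPM in the mtAsn libraries, against 23.8 to 25.6 CPM with mtLys. The count under a stricter filter on low reads was 7 higher, and in the fit of 1 mtAsn group 2.

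**Figure D4:**
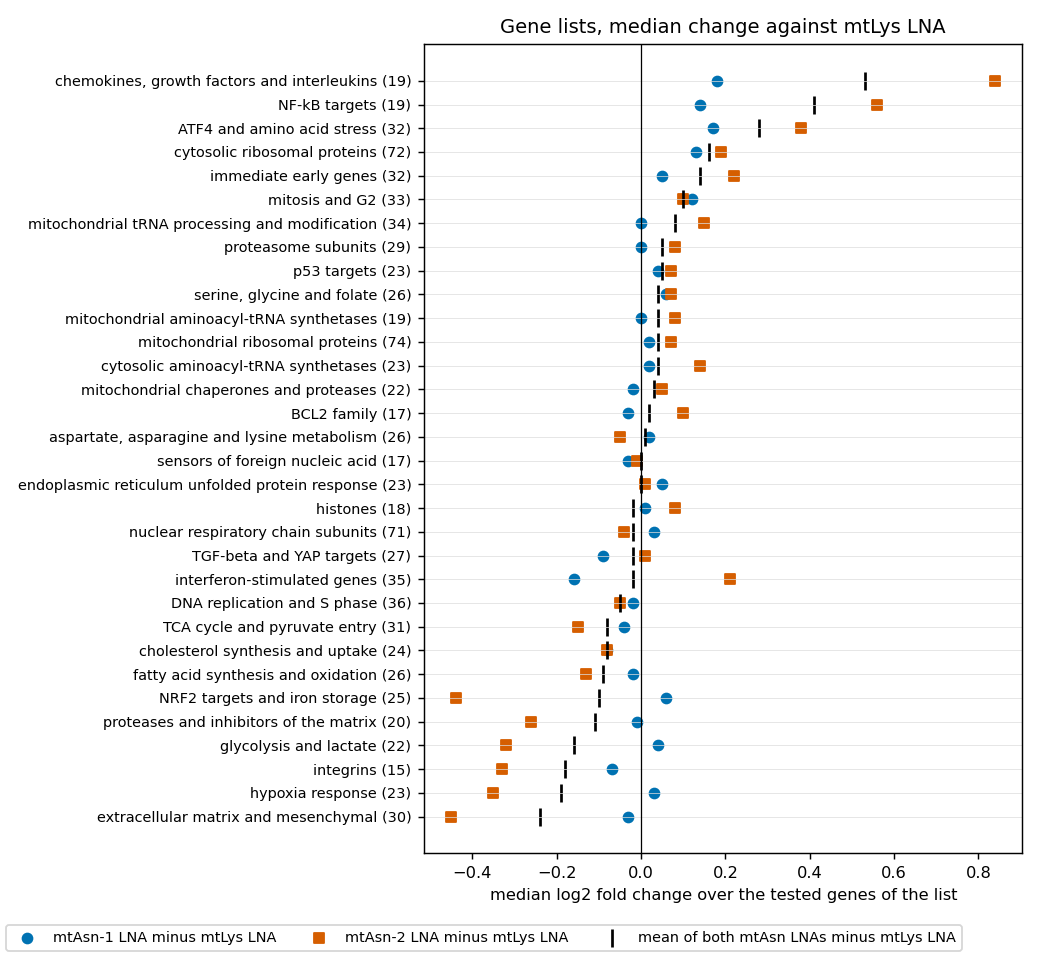
Median log2 fold change over the tested genes of each list (x axis), as mtAsn-1 minus mtLys, mtAsn-2 minus mtLys and the mean of both minus mtLys, with the number of tested genes in brackets (y axis). The 3 highest medians of the mean are 0.53, 0.41 and 0.28, and the mtAsn-2 marker lies farther from 0 than the mtAsn-1 marker for the lists at both ends; the comparisons share the mtLys libraries.

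Extracellular matrix and mesenchymal genes, which encode the collagens, laminins and regulators that surround and shape invasive cells, were lower. Of 30 tested, 18 fell, 1 rose and 11 did not pass, and 9 of the falls had no overlap. The median was -0.24, but -0.03 with mtAsn-1 and -0.45 with mtAsn-2. The summed level was 14736 to 15928 CPM with mtAsn-1, which overlapped the 14950 to 15502 CPM of mtLys, and 11445 to 12258 CPM with mtAsn-2; control stood at 11937 to 12722 CPM. COL5A1, a fibril collagen chain, had 531, 555 and 546 CPM with mtAsn-1 and 261, 276 and 287 CPM with mtAsn-2, against 682, 638 and 647 CPM with mtLys and 443 to 485 CPM with control. The change was -0.76 ± 0.036 (adjusted p = 7.06e-15), with -0.27 and -1.25 for the LNAs. In the basement membrane, COL4A1 changed by -0.54 ± 0.036 (2.83e-12), COL4A5 by -0.59 ± 0.057 (4.30e-09) and COL4A6 by -1.20 ± 0.21 (6.57e-05). SNAI2, a repressor of epithelial genes, changed by -0.39 ± 0.067 (4.94e-05), at -0.36 and -0.42 for the LNAs. COL1A1 rose (0.21, 0.00358) with overlapping libraries. Only COL4A6 and SNAI2 were called with the mtAsn libraries as 1 group.

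Integrins, the receptors that fix cells to the matrix, gave 8 lower and 0 higher of 15, with 3 free of overlap and a median of -0.18. ITGB2 had 22.6, 21.4 and 22.1 CPM with mtAsn-1 and 29.3, 28.6 and 27.5 CPM with mtAsn-2, against 29.5, 31.3 and 33.0 CPM with mtLys and 46.2 to 47.3 CPM with control. Here mtAsn-1 lay farther from mtLys (-0.50) than mtAsn-2 (-0.13; adjusted p of the difference 7.50e-06), and the mean was -0.32 ± 0.048 (8.00e-06). ITGA7 changed by -1.02 ± 0.19 (1.44e-04). The number of integrins that fell was 5 without mtAsn-2 replicate 1, without mtLys replicate 1 and with library totals alone, and in the fit of 1 mtAsn group 0, where ITGB2 had an adjusted p of 0.131.

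Proteases of the matrix and their inhibitors gave 2 higher and 10 lower of 20. PLAT, the tissue plasminogen activator, had 276, 367 and 271 CPM with mtAsn-1 and 147, 150 and 157 CPM with mtAsn-2, against 398, 416 and 407 CPM with mtLys and 162 to 179 CPM with control (-0.92 ± 0.084, adjusted p = 1.97e-05). The metalloprotease inhibitor TIMP3 changed by -0.53 ± 0.072 (2.19e-04), and ADAM10, which sheds surface proteins, by -0.22 ± 0.036 (2.81e-05). The list of TGF-beta and YAP targets gave 4 higher and 9 lower of 27, with a median of -0.02 (-0.09 with mtAsn-1 and 0.01 with mtAsn-2). With mtAsn-2 alone the list gave 9 higher and 9 lower. Its lower genes on the mean included the ligand TGFB2 (-0.49, 4.68e-08), the receptor TGFBR2 (-0.35 ± 0.032, 2.08e-09), the YAP partner TEAD1 (-0.42 ± 0.032, 3.33e-11) and tissue factor, F3 (-0.57, 1.34e-04). In the fit of 1 mtAsn group, ADAM10, TGFB2 and F3 kept the call. PLAT (adjusted p = 0.121), TIMP3 (0.2), TGFBR2 (0.193) and TEAD1 (0.236) lost it.

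Lists of carbon metabolism were lower on the mean, while the LNAs lay apart. Of 22 glycolysis and lactate genes 15 fell and 1 rose, with a median of -0.16, split into 0.04 in mtAsn-1 and -0.32 in mtAsn-2 cells. Only SLC2A1, the glucose transporter, fell without overlap, at 798 to 837 CPM with mtAsn-1 and 627 to 647 CPM with mtAsn-2, against 860 to 888 CPM with mtLys (-0.28 ± 0.031, adjusted p = 3.98e-08). Against mtLys alone, mtAsn-1 called none of these genes in either direction and mtAsn-2 called 19 lower and 1 higher. By the test of the difference between the LNAs, 18 of the 22 were higher with mtAsn-1 than with mtAsn-2 and 1 was lower. Hypoxia response genes gave 13 lower and 1 higher of 23 (median 0.03 in mtAsn-1 and -0.35 in mtAsn-2 cells), with PLOD2, a collagen lysyl hydroxylase, the lower gene without overlap (-0.22 ± 0.035, 2.21e-05). NRF2 targets, which detoxify and store iron, gave 11 lower and 2 higher of 25 (medians 0.06 and -0.44). The calls free of overlap among NRF2 targets were ABCC2 (-0.38, 0.0243), GSR (-0.13, 0.0296) and SRXN1 (0.11, 0.0401), each of which lost its call when some single libraries were left out.

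In lipid metabolism, 8 of 24 cholesterol genes fell and 1 rose, with LSS, the lanosterol synthase, at -0.42 ± 0.054 (6.50e-07) and mevalonate kinase, MVK, at -0.19 ± 0.046 (0.00169). Of 26 fatty acid genes 10 fell and 2 rose, among them ACSL1, which activates fatty acids (-0.30 ± 0.038, 5.28e-07), and the desaturase FADS2 (-0.29 ± 0.041, 6.22e-06). TCA cycle and pyruvate entry genes gave 10 lower and 3 higher of 31, and 6 lower with library totals alone. GLUD1, which feeds glutamate into the cycle, had 208 to 220 CPM with mtAsn-1 and 139 to 144 CPM with mtAsn-2, against 221 to 232 CPM with mtLys (-0.38 ± 0.032, 4.13e-10).

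The counts were close to these without replicate 2 of mtAsn-1. Then ribosomal proteins gave 62 higher and 1 lower, ATF4 genes 22 and 3, NF-kB targets 15 and 0, chemokines and interleukins 10 and 2, matrix genes 2 and 21, integrins 0 and 9, mitosis genes 18 and 0, and glycolysis genes 1 and 15. In the fit of 1 mtAsn group, none of the genes of glycolysis, hypoxia, NRF2, cholesterol, fatty acids or the TCA cycle was called.

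**Figure D5:**
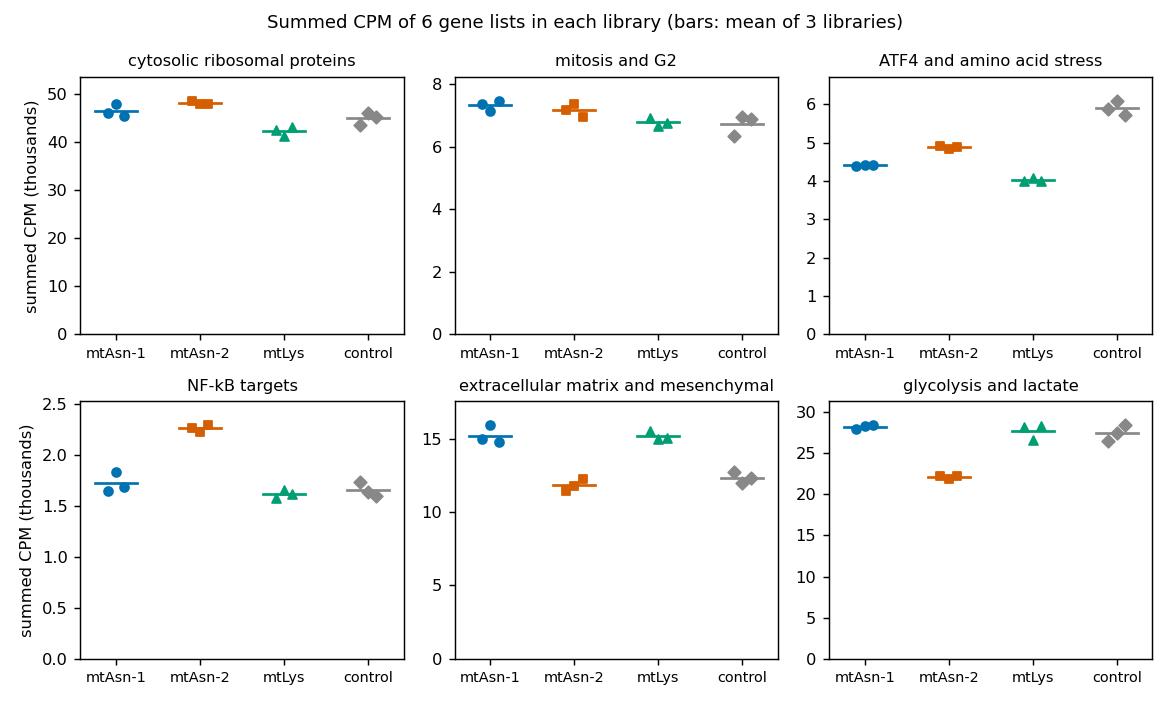
Summed CPM (axis in units of 1000) of all genes of 6 lists (y axis, from 0) in each library of the mtAsn-1, mtAsn-2, mtLys and control groups (x axis), with bars at group means. Ribosomal proteins stand at 45474 to 48644 CPM in the mtAsn libraries, above mtLys at 41215 to 43241 CPM, whereas for matrix and glycolysis genes mtAsn-1 overlaps mtLys and mtAsn-2 lies lower.

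Lists of the mitochondrion itself had medians of -0.02 to 0.08 on the mean. Of 71 nuclear genes for respiratory chain subunits 6 rose and 9 fell (median -0.02), with NDUFS7 of complex I (0.16 ± 0.041, 0.00401) and ATP5F1D of the ATP synthase (0.18 ± 0.041, 0.0015) higher and ATP5ME (-0.28 ± 0.056, 2.70e-04) lower without overlap. With library totals alone these counts were 12 and 4, the higher count was 3 without mtLys replicate 1, and the lower count was 4 or 5 without mtAsn-2 replicate 2 or mtLys replicate 2 or 3. Mitochondrial ribosomal proteins gave 12 higher and 1 lower of 74 (median 0.04). MRPS15 rose by 0.21 ± 0.04 (2.47e-04) and MRPL11 by 0.18 ± 0.04 (7.21e-04), and MRPS6 was the gene that fell (-0.30 ± 0.052, 4.98e-05). Genes that process and modify mitochondrial tRNAs gave 8 higher and 3 lower of 34, with a median of 0.08 (0 with mtAsn-1 and 0.15 with mtAsn-2). They include SLIRP, a stabiliser of mitochondrial mRNA, at 45.4 to 47.7 CPM with mtAsn-1 and up to 55.4 CPM with mtAsn-2, against 42.3 to 44.5 CPM with mtLys (0.18 ± 0.046, 0.00291). Leaving out replicate 1 of any of the 3 groups, or replicate 3 of mtAsn-1 or mtLys, brought the higher count to 2 to 5, and library totals alone brought it to 15. Chaperones and proteases of the mitochondrion gave 4 higher and 3 lower of 22, with GRPEL2 (0.31 ± 0.055, 7.76e-05) and TRAP1 (0.14 ± 0.04, 0.00677) higher and the import channel gene TIMM23 lower (-0.13 ± 0.041, 0.0127). The higher count was 2 without mtLys replicate 1, and the lower count 1 without mtLys replicate 2 or 3. With mtAsn-1 alone, 0 mitochondrial ribosomal proteins were higher and 1 lower, and 0 genes of tRNA processing or of the chaperones and proteases were called. With mtAsn-2 alone, these lists gave 21 higher and 5 lower, 20 and 3, and 9 and 4. Over all genes tested, mtAsn-1 alone called 2.12% higher and 3.14% lower, and mtAsn-2 alone 22.9% and 25.7%.

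In the list of aspartate, asparagine and lysine metabolism 6 rose and 3 fell of 26 (3 rose without mtLys replicate 1). Beside ASNS, the aminotransferase gene GOT1 rose by 0.16 ± 0.042 (0.0036), and SLC25A13, the aspartate-glutamate carrier, fell by 0.15 (SE 0.042, 0.00665). Immediate early genes gave 13 higher and 3 lower of 32 with 2 free of overlap, FOSB (0.80 ± 0.14, 7.45e-05) and SPRY4 (0.11 ± 0.035, 0.0213). With mtAsn-1 alone 0 immediate early genes were called higher and 1 lower, and with mtAsn-2 alone 18 and 5. NR4A1 passed on the mean (0.98, 6.20e-08) with 0.01 in mtAsn-1 and 1.94 in mtAsn-2 cells. Of 23 genes of the unfolded protein response 4 rose and 3 fell, with ERN1, its sensor, higher by 0.58 ± 0.061 (1.70e-08). Without mtLys replicate 2 or 3, 2 of them rose. With mtAsn-1 alone 0 genes of this response were called, and with mtAsn-2 alone 6 were higher and 7 lower. These single-LNA counts stand beside 2.12% higher and 3.14% lower of all genes tested with mtAsn-1, and 22.9% and 25.7% with mtAsn-2. In the BCL2 family 4 rose and 4 fell of 17, with the survival gene MCL1 (0.15 ± 0.038, 0.00357) and BCL2L12 (0.23 ± 0.04, 7.26e-05) free of overlap. Of 23 p53 targets 6 rose and 0 fell on the mean, among them MDM2 (0.20 ± 0.042, 4.46e-04) and FDXR (0.28 ± 0.066, 0.0019). With mtAsn-1 alone, 0 p53 targets passed in either direction, and with mtAsn-2 alone 10 were higher and 4 lower. Proteasome subunits gave 3 higher and 2 lower of 29, with PSMD3 (0.15 ± 0.034, 0.00127) and PSMB6 (0.10 ± 0.037, 0.0412) free of overlap. The higher count was 11 with library totals alone and 1 without mtAsn-1 replicate 3 or mtLys replicate 1. With mtAsn-1 alone 0 proteasome subunits were called, and with mtAsn-2 alone 14 were higher and 3 lower.

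Markers of other cell types were compared as well. Luminal epithelial markers gave 2 higher and 3 lower of 10 tested, with a summed level of 558.6 to 632.6 CPM with mtAsn-1 and 490.7 to 528.3 CPM with mtAsn-2, against 560.0 to 615.2 CPM with mtLys. AGR2 is a member of this list, and ERBB2 was its higher gene without overlap (0.19 ± 0.035, 1.07e-04). Leukocyte and erythroid markers gave 0 higher and 2 lower of 4 tested, with sums of 100.3 to 125.5 CPM and 94.18 to 103.9 CPM for mtAsn-1 and mtAsn-2, against 101.9 to 112.7 CPM with mtLys. Endothelial and fibroblast markers gave 1 higher and 2 lower of 5 tested, with sums of 60.36 to 65.48 CPM and 72.45 to 83.1 CPM for mtAsn-1 and mtAsn-2, against 64.65 to 70.22 CPM with mtLys. The markers of the line itself gave 1 higher and 7 lower of 12, including LAPTM5 (-0.41 ± 0.033, 9.68e-11) and the keratin KRT8 (-0.33 ± 0.033, 7.97e-09). The part of any such difference in the gene results was not tested.

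The noncoding genes with the largest smaller change were all scarce. LOC107985590 on chromosome 22 had 0.114 to 0.359 CPM in the mtAsn libraries, against 0.620 to 0.996 CPM with mtLys (-1.5 ± 0.28, adjusted p = 1.47e-04). LOC105372268 on chromosome 19 had 0.180 to 0.437 CPM in the mtAsn libraries, against 0.0539 to 0.117 CPM with mtLys (1.57 ± 0.47, 0.0111; 0.0883 without mtLys replicate 1). LOC105371622 on chromosome 1 had 0.114 to 0.385 CPM in the mtAsn libraries, against 0 to 0.0879 CPM with mtLys (1.72 ± 0.57, 0.0221), and lost its call without replicate 3 of mtAsn-1 (0.0826) or of mtLys (0.108) and without replicate 1 of mtAsn-2 (0.0549). LOC105372268 and LOC105371622 overlap genes on the opposite strand.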

How the data were processed

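RNA-seq of MDA-MB-231 cells was analysed from the gene table that the authors deposited, which holds whole-number read counts per gene, not normalized. Per the submitters' processing notes the tools were FastQC, STAR 2.6.0a, featureCounts and DESeq2 with build hg38; no source used here gives their settings, the strand setting or the treatment of reads with several matches. Of 52897 rows, 52859 were used; 26 fragments of 12 broken gene rows, at most 0.1408% of a library, were left out.

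One edgeR 4.0.16 fit (R 4.3.3; quasi-likelihood F test, robust, TMM scaling, filterByExpr with a minimum count of 10 and a minimum total of 15) covered all 12 libraries with 1 coefficient per LNA, and 16051 genes were tested with Benjamini-Hochberg adjustment at 0.05. The contrast was the mean of mtAsn-1 and mtAsn-2 minus mtLys; its p-values do not treat the LNAs as replicates of a target. Standard errors were back-calculated from the fold change and F. CPM are TMM-scaled, and no-overlap was read on them. The code was tested on simulated data. Named genes were the tRNA and synthetase genes, then 12 protein-coding genes per direction that passed without overlap at a mean log2 CPM of at least 2, ranked by the smaller LNA change, up to 2 per direction and list by adjusted p, and 3 noncoding genes; other list members are named beside these. The members and lists were chosen with earlier results of these data known. Alternatives were other scalings, filters, DESeq2 1.42.0, a replicate block, the 9 libraries alone, thinned counts, 1 mtAsn group and leaving out each library.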

Additional observations from a re-analysis of the deposited data

Results flagged for a closer look

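For 12 of the 24 ranked genes the asparagine LNAs differed from each other by the test of that difference, although both lay on the same side of mtLys. This share is near that of all genes tested, of which 46.5% differed between the LNAs. The median absolute change against mtLys over all genes was also larger with mtAsn-2 (0.212) than with mtAsn-1 (0.092). Among the higher genes the log2 fold change of mtAsn-1 minus mtAsn-2 was -1.21 for CXCL2, -0.80 for NUPR1, -0.72 for CXCL1, -0.64 for CXCL8, -0.59 for RFX2, -0.41 for GUCY1B1, -0.33 for PTGS2 and -0.29 for DHRS3, so mtAsn-2 lay farther from mtLys in each. Among the lower genes it was 1.05 for INHBB, 0.88 for F13A1, 0.72 for AQP3 and 0.32 for ANGPTL2, again with mtAsn-2 farther out. The other 12 ranked genes, among them CEMIP, AGR2, PLLP, ADGRB2 and PIM1, did not pass the test of a difference between the LNAs, which does not show that the LNAs act alike on them.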

How the results depend on the processing

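No named gene that passed changed sign under any alternative tried. With the 6 mtAsn libraries as 1 group, 74 genes were higher and 170 lower, all without overlap, 7 of them at least 2-fold higher and 40 at least 2-fold lower, since the difference between the LNAs then counts as error. Library totals alone, an alternative chosen after seeing the data, turned the split to 2858 higher and 2240 lower genes. The medians of the respiratory chain, interferon, TGF-beta and YAP, and histone lists, each -0.02, became 0.02 with it, and that of luminal markers, -0.04, became 0.04 with thinned counts. With 1 mtAsn group the medians of interferon genes and histones were 0.01. The 2-fold counts were 25 higher and 62 lower with DESeq2, 7 and 12 with a stricter filter, which tested 10884 genes, and 185 lower with no filter, which tested 31412; the cause of the DESeq2 difference was not tested. Leaving out 1 library at a time gave 1320 to 1999 higher and 2264 to 2909 lower genes, 614 to 858 and 865 to 1231 of them without overlap, and 50 to 66 and 105 to 130 at least 2-fold. To look for pairing by replicate number, each library's deviations from its group mean of log2 CPM were correlated between groups. These correlations were -0.277 to 0.131 for libraries of the same number and -0.286 to 0.29 for those of different numbers. They show no sign of pairing but cannot settle whether there was any. With the replicate block 1723 genes were higher and 2665 lower, 586 and 877 without overlap, and among the 96 named genes 3 lost the call. Leaving out 1 library cost up to 13 of the 96 their call, most without mtLys replicate 3. The fit of 1 mtAsn group cost far more, with 65 of the 96 losing their call. The 96 include MT-TK, NARS2 and KARS1, which did not pass in the main fit. Genes with few reads, MT-TN above all, are limited by depth.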

Other observations

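Interferon-stimulated genes, the antiviral genes that cells switch on through STAT transcription factors, parted the asparagine LNAs from each other with mtLys between them. Of 35 tested, 4 rose and 4 fell on the mean, with a median of -0.02, but the median was -0.16 with mtAsn-1 and 0.21 with mtAsn-2. By the test of the difference between the LNAs, 28 of the 35 were lower with mtAsn-1 than with mtAsn-2 and 2 were higher. ISG15, a ubiquitin-like modifier, had 78.1, 84.8 and 85.6 CPM with mtAsn-1 and 127, 123 and 122 CPM with mtAsn-2, against 104, 105 and 111 CPM with mtLys and 159 to 196 CPM with control. All mtAsn-1 libraries lay below and all mtAsn-2 libraries above those of mtLys, and the mean change of -0.07 did not pass (edgeR adjusted p = 0.289). DDX60, an RNA helicase gene, had 32.8, 39.0 and 36.0 CPM with mtAsn-1 and 65.4, 72.3 and 58.2 CPM with mtAsn-2, against 51.2, 50.2 and 56.4 CPM with mtLys. Its changes were -0.55 with mtAsn-1 and 0.31 with mtAsn-2. IFIT2, whose product binds foreign RNA, changed by -0.50 with mtAsn-1 (0.00383), while its 0.14 with mtAsn-2 did not pass (0.167).

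Few genes of this list separated both asparagine LNAs from mtLys. OAS3, an enzyme activated by double-stranded RNA, rose by 0.50 ± 0.045 (edgeR adjusted p = 1.25e-09), at 43.6 to 44.1 CPM with mtAsn-1 and 76.1 to 86.3 CPM with mtAsn-2, against 40.1 to 43.0 CPM with mtLys. With mtAsn-1 alone, OAS3 did not pass and 0 genes of the list were called higher. In the fit of 1 mtAsn group 0 genes of the list were called, and OAS3 had an adjusted p of 0.203. STAT2 (-0.29 ± 0.048, 5.66e-05) and MX2 (-0.65 ± 0.19, 0.0099) fell without overlap. The count of lower genes in the list was 1 without mtLys replicate 3, 2 without mtAsn-2 replicate 1 or 2 or mtLys replicate 1, and 8 without mtAsn-1 replicate 3. Of 17 sensors of foreign nucleic acid 3 rose and 3 fell, none without overlap, and IFIH1, a sensor of long double-stranded RNA, fell by 0.37 (SE 0.065, 6.99e-05). Histone genes, which have near-identical copies, gave 1 higher and 2 lower of 18, and the mitochondrial tRNA and rRNA genes 0 higher and 2 lower of 18.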
